A study of Mus musculus with 6 samples.

Results

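miR-126 is a microRNA (miRNA) of endothelial cells and blood stem cells whose hairpin lies in an intron of Egfl7, the gene of a secreted endothelial protein. Its members were chosen by name, as the mature products of the Mir126a hairpin and of Mir126b, a hairpin annotated on the opposite strand. Of the 4 names, mmu-miR-126a-3p and mmu-miR-126a-5p were measured, out of 1626 miRNAs counted in all, and mmu-miR-126b-3p and mmu-miR-126b-5p were not analysed here. The prefix mmu, for mouse, is left out below. The libraries were made from total RNA of fetal liver cells of C57BL/6J mouse embryos. A group of 3 was wild type (WT, libraries WT1 to WT3) and a group of 3 carried the homozygous deletion miR-144/451-/- (KO, libraries KO4 to KO6). The labels give neither the embryonic day nor whether replicates came from separate embryos, so each p-value speaks only of the spread among these libraries, some of which may be technical.

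miR-126 is known in the endothelium for dampening Spred1 and Pik3r2, inhibitors of signalling downstream of vascular endothelial growth factor, and for its part in keeping vessels intact. In blood formation it is known from haematopoietic stem and progenitor cells, where it restrains cell cycle entry. The 3p strand is the product most often studied. The 5p strand, also written miR-126*, is loaded into silencing complexes as well and is known to act on Dlk1 in endothelial cells. Fetal liver during blood formation is mainly erythroid, and endothelial cells and stem cells are minor populations of it.

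The hairpin and its products are shown because the arm ratio and the identity of the counted strand rest on them (RefSeq, GRCm38.p6; 3 of the 4 mature names had an entry, and miR-126a-5p is named only). In the Mir126a hairpin, chr2:26591357-26591429 on the plus strand, capitals mark the miR-126a-3p arm. In the mature sequences, capitals mark the seed, bases 2 to 8, which pairs with targets.
Mir126a: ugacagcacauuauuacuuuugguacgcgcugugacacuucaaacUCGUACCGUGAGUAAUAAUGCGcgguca
miR-126a-3p: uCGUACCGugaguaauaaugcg
miR-126b-5p: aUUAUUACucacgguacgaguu
miR-126b-3p: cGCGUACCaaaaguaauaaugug

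The Mir126b hairpin, chr2:26591363-26591420 on the minus strand, is the exact reverse complement of 58 bases of the Mir126a hairpin. Its 5p product is therefore complementary to miR-126a-3p over 19 unbroken bases, while on the same strand miR-126a-3p shares a run of 10 bases with miR-126b-3p and of 4 with miR-126b-5p. The seeds of these 3 mature sequences differ. Mir126a and Mir126b form 1 of 24 pairs of annotated hairpins on opposite strands of an interval, and both partners had a row in 12 of these pairs.

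Among the 1376 measured miRNAs with a RefSeq mature sequence, 0 others had the seed of miR-126a-3p, and 0 others shared its bases 2 to 7. The longest unbroken run that miR-126a-3p shared with any of them, the miR-126b names aside, was 8 bases, with miR-3062-5p. No other miRNA had nearly the same counts as miR-126a-3p in every library. The nearest, miR-19b-3p, differed by up to 33.0% in a library, so the count of miR-126a-3p was not a copy of another row. For miR-126a-5p the nearest was miR-143-3p, with a largest difference of 24.6%.

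Egfl7 spans chr2:26580014-26593120 on the plus strand in GRCm38 (GENCODE M21), the same strand as Mir126a. The hairpin fell inside an intron in 8 of the 19 annotated Egfl7 transcripts. In Egfl7-201 and Egfl7-202, each with 10 exons, this was intron 7, from 26591064 to 26591663. It fell in the last exon of 1 transcript, Egfl7-206, annotated as a retained intron, and outside the exons and introns of the other 10, which do not cover it.

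The libraries held 16243894 to 27089133 miRNA counts, and 1258 to 1345 miRNAs had a count per library. The deleted locus took 17.6% to 24.1% of counts in WT and 0.0214% to 0.0231% in KO, which matched the labels of all 6 libraries. Without the locus the other miRNAs together make up a larger share of a KO library. With no scaling factor 733 of 873 had a log2 fold above 0. Over the 873 miRNAs that were tested and lie elsewhere, the log2 folds had a median of 0.34 with no scaling factor and of -0.01 after TMM scaling (edgeR's trimmed mean of M-values). TMM-scaled counts per 1000000 (CPM) are therefore the main measure. By mean over the 6 libraries, the most abundant miRNA listed for erythroid cells was miR-16-5p, at 87878 to 123958 CPM. In each WT library miR-451a, a product of the deleted locus, was higher, at 232232, 152852 and 194549 CPM in WT1 to WT3. For hepatocytes the most abundant by mean was miR-122-5p, at 29323 to 117798 CPM. In bulk RNA, fewer cells of a type and less miRNA per cell cannot be told apart.

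miR-126a-3p was an abundant miRNA of both genotypes, ranked 27 to 35 by count in the 6 libraries. It had 113827, 141891 and 167442 counts in WT1 to WT3 and 121400, 108281 and 230205 counts in KO4 to KO6. These were 0.549%, 0.524% and 0.733% of the WT libraries and 0.747%, 0.657% and 0.958% of the KO libraries. The groups overlapped, with WT3 above KO5. Depth gave narrow counting intervals, at the widest 0.743% to 0.752% for KO4 (Wilson 95%). They were far smaller than the range over the libraries, 0.524% to 0.958%. These intervals hold counting error alone, and counts can include copies of one molecule where such copies were not removed.

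After TMM scaling the genotypes differed in miR-126a-3p by less than the spread between libraries. It was 6220.1, 5878 and 8382 CPM in WT1 to WT3 and 6122, 5980.2 and 8821 CPM in KO4 to KO6. WT3 and KO6 stood high, and the other 4 libraries lay close together. The WT mean was 6827 ± 1358 CPM and the KO mean 6974 ± 1601 CPM (SD, n = 3 each). The log2 fold of KO over WT was 0.03 (SE 0.21; edgeR quasi-likelihood Benjamini-Hochberg adjusted p = 0.999).

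miR-126a-5p was the less abundant arm, ranked 67 to 82 by count. It had 25915, 34880 and 42773 counts in WT1 to WT3 and 34652, 31761 and 58065 counts in KO4 to KO6, or 0.125%, 0.129% and 0.187% of the WT libraries and 0.213%, 0.193% and 0.242% of the KO libraries. As shares of the library the genotypes did not overlap, with KO higher, as was so for 31.3% of the 873 tested miRNAs. In TMM-scaled CPM they overlapped, with WT3 above KO4 and KO5. WT1 to WT3 held 1416, 1445 and 2141 CPM and KO4 to KO6 held 1747, 1754 and 2225 CPM, with means of 1667 ± 411 and 1909 ± 274 CPM (SD, n = 3 each). In CPM, 0 of the 2 members had groups that did not overlap, against 21.5% of the tested miRNAs. The log2 fold was 0.20 (SE 0.21; edgeR Benjamini-Hochberg adjusted p = 0.785).

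**Figure D1:**
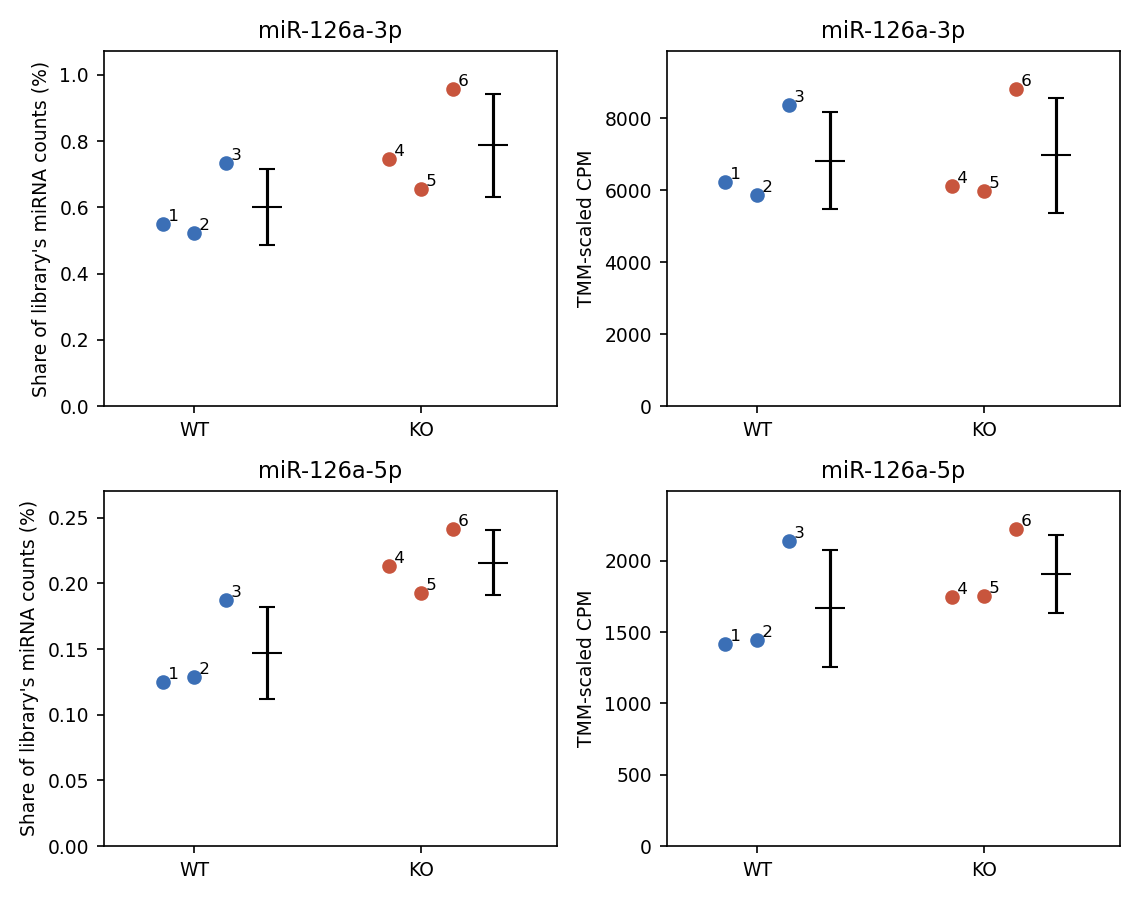
Level of miR-126a-3p (top) and miR-126a-5p (bottom) in each library (numbered points) as share of the library's miRNA counts (left, percent) and as TMM-scaled CPM (right); bars are means and SD, n = 3 per genotype, on axes from 0. In CPM, WT3 and KO6 stand high for both arms and the genotypes overlap, while the 5p shares of the KO libraries, 0.193% to 0.242%, all lie above the WT shares.

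Neither arm passed the test: 0 of the 2 members had an edgeR adjusted p under 0.05, against 0.458% of the 873 tested miRNAs that lie elsewhere than the deleted locus. Both also missed an unadjusted p of 0.05 (0.888 for 3p and 0.385 for 5p), which 11% of those miRNAs reached, and neither was called by DESeq2 or limma-voom. The libraries leave room for moderate differences. The 95% interval of the KO over WT ratio from limma-voom was 0.727 to 1.45 for miR-126a-3p and 0.828 to 1.64 for miR-126a-5p. Among the same 873 miRNAs, 91.4% had a fold of larger size than miR-126a-3p and 62.3% one larger than miR-126a-5p, and the median size was 0.27 on the log2 scale.

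The sign of the miR-126a-3p fold depended on the scaling, at -0.04 with RLE scaling (DESeq2's size factor method) or when the locus was taken out first, and 0.39 with no scaling factor. It was -0.18 without KO6 and 0.13 without WT3. The fold of miR-126a-5p was positive under every alternative run, from 0.05 without WT2 to 0.55 with no scaling factor, and was not called under any. Without KO6 it was 0.06, without WT1 0.09 and without WT3 0.34.

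**Figure D2:**
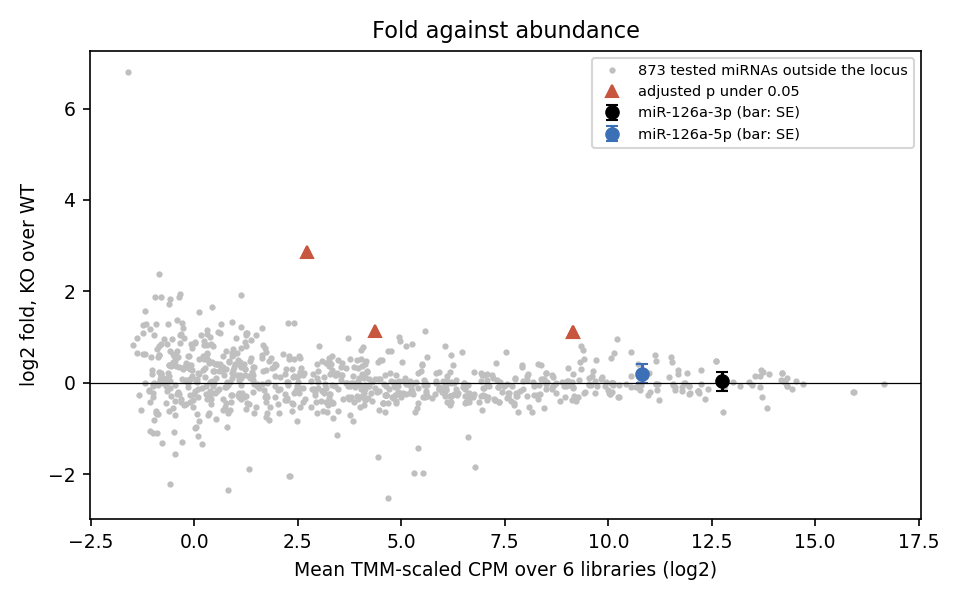
KO over WT (log2 fold) plotted on mean TMM-scaled CPM (log2) for 873 miRNAs not of the deleted locus (grey); triangles are miRNAs with an edgeR adjusted p under 0.05, of which 2 coincide, and the black and blue points are miR-126a-3p and miR-126a-5p with SE bars. Both arms lie among the abundant miRNAs near 0, at 0.03 and 0.20.

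Both arms together took 0.674%, 0.653% and 0.920% of counts in WT1 to WT3 and 0.961%, 0.849% and 1.20% in KO4 to KO6. Their means were 0.749% ± 0.149 in WT and 1.003% ± 0.179 in KO (SD, n = 3 each), with an exact two-sided permutation p of 0.2; 3 against 3 libraries cannot give a p under 0.1. Counted against the library total without the deleted locus, the shares were 0.944% ± 0.187 and 1.003% ± 0.179 (exact two-sided permutation p = 0.6, n = 3 each). The difference of means fell from 0.254 to 0.0594 percentage points when the locus was taken out of the total, and was 0.156 without KO6.

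The 3p arm was the major product of the hairpin in every library, with 3.41 to 4.39 counts of 3p for each count of 5p. The 5p arm made up 18.5%, 19.7% and 20.3% of the hairpin's counts in WT1 to WT3 and 22.2%, 22.7% and 20.1% in KO4 to KO6. KO4 and KO5 stood above the 3 WT libraries, and KO6 lay between WT2 and WT3. The means were 19.5% ± 0.916 in WT and 21.7% ± 1.35 in KO (SD, n = 3 each; exact two-sided permutation p = 0.2). Each share rested on at least 139742 counts of the hairpin, and Wilson 95% intervals were narrow, 18.3% to 18.7% for WT1 and 22.5% to 22.9% for KO5.

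In the fit over all hairpins the log2 ratio of 5p to 3p was -2.04 ± 0.0846 in WT and -1.86 ± 0.116 in KO (SD, n = 3 each), a difference of 0.19 (SE 0.17; limma Benjamini-Hochberg adjusted p = 0.920). No hairpin outside the locus passed this test (0% of 262), and 5.73% had an unadjusted p under 0.05, which miR-126a missed at 0.297. The difference was positive under every alternative run and was not called under any. Without WT3 and KO6 together, an alternative chosen after seeing the data, it was 0.29 (limma adjusted p = 0.862). Over the 263 fitted hairpins, 46.4% had a smaller change in size, and the median size was 0.19.

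Compared with other hairpins, the arms of miR-126a were less one-sided than those of most abundant hairpins, and their ratio was steady. Of the 263 hairpins, 130 had the 3p arm as the more abundant. The mean log2 ratio of miR-126a was -1.95. Of the 77 fitted hairpins with at least 1000 CPM over both arms, 87.0% were more one-sided, with a median size of 5.83 on the log2 scale. The SD of its log2 ratio within genotypes was 0.10, against a median of 0.24 over those 77 hairpins, of which 5.19% had a smaller SD. The SD was not compared among hairpins of like arm balance or of like counts in the minor arm. These positions among hairpins are descriptions, without a test.

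**Figure D3:**
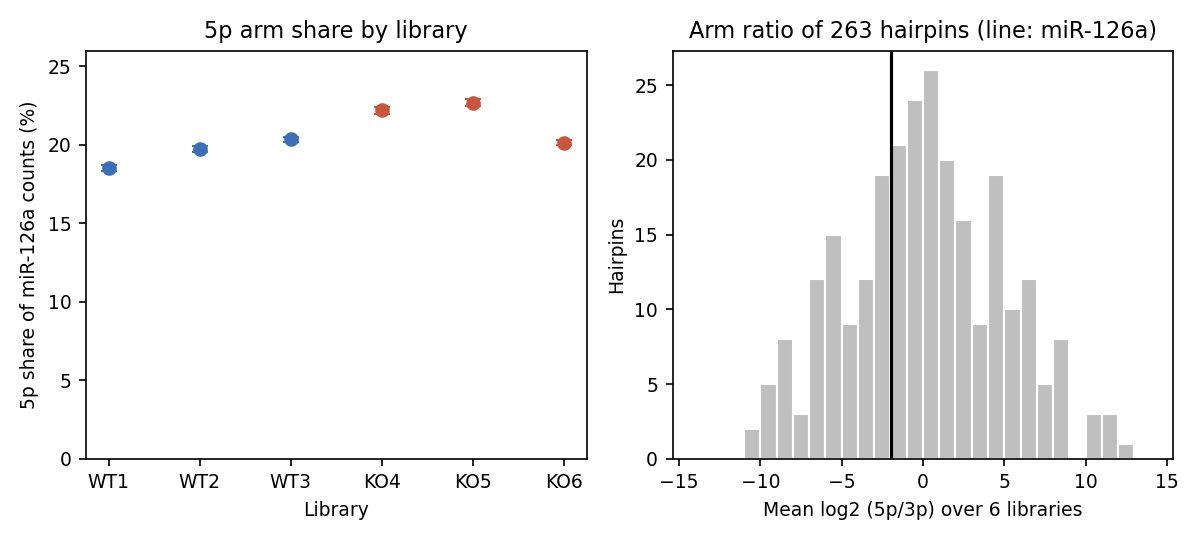
Left, the 5p share of miR-126a counts (percent, axis from 0) in each library with Wilson 95% intervals, blue for WT and red for KO; right, the mean log2 ratio of 5p to 3p over the 6 libraries for 263 hairpins, with a line at miR-126a. The 5p share runs from 18.5% in WT1 to 22.7% in KO5, and miR-126a lies at -1.95, closer to balance than most abundant hairpins.

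Most of the variation in miR-126a lay between libraries of a genotype, 99.7% of the sum of squares of log2 CPM for 3p and 81.8% for 5p. With so few libraries, most of the sum of squares falls within genotypes even without a genotype effect. These percentages are therefore not a trait of miR-126a. miR-126a-3p in WT3 was 0.31 above the WT mean and in KO6 0.36 above the KO mean (log2), while the other 4 libraries were 0.12 to 0.20 below. The deviations of miR-126a-5p were 0.39 in WT3 and 0.23 in KO6. The highest library was 1.501 times the lowest for 3p and 1.57 times for 5p. The within-genotype SD was 0.30 for 3p and 0.28 for 5p on the log2 scale. Among 100 miRNAs outside the locus with a mean of at least 1000 CPM the median was 0.19, and 71% and 70% of them had a smaller SD than the respective arm.

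The same WT3 and KO6 libraries held the most hepatocyte miRNA of their genotype. miR-122-5p, the main hepatocyte miRNA, was 1.08 above the WT mean in WT3 and 0.80 above the KO mean in KO6 (log2). The summed hepatocyte list (6 tested of 7) spanned 37953 to 138244 CPM in WT and 45657 to 107583 CPM in KO. The mesenchymal list also peaked in these libraries, at 3205 CPM in WT3 and 3019 CPM in KO6, as did the epithelial list, at 1288 and 959 CPM, the progenitor list, at 9637 and 7762 CPM, and the megakaryocyte list, at 5076 and 4354 CPM. The 2 most abundant progenitor miRNAs did not share the peak of their sum. miR-29a-3p was lowest of its genotype in WT3 and KO6, at 1544 and 1545 CPM. miR-181a-5p was lowest of WT in WT3, at 2609 CPM, and lay between KO4 and KO5 in KO6, at 2084 CPM. The myeloid list was lowest in WT3 and KO6, at 44285 and 36795 CPM, as was the erythroid list, at 376327 and 165264 CPM, which in WT includes the deleted locus. The other endothelial list was lowest in WT3, at 28170 CPM against 33317 in WT1 and 33305 in WT2. Its members differed in this: miR-92a-3p, the most abundant, held 17459, 16248 and 11185 CPM in WT1 to WT3. miR-24-3p, the next most abundant, was highest in WT3, with 2943, 3625 and 4334 CPM. In KO the summed list was highest in KO6, at 28463 CPM against 27666 in KO4 and 26904 in KO5. Muscle markers did not follow either, with 400.3 CPM in WT1 against 14.4 in WT3 and 13.3 in KO6. The part of these other cell types in the miR-126a levels was not tested. With miR-122-5p added to the model as a covariate, a choice made once the values were known, the folds were 0.05 (SE 0.11) for 3p and 0.23 (SE 0.09) for 5p, and edgeR gave Benjamini-Hochberg adjusted p of 0.835 and 0.246.

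Likeness of pattern was measured as the root-mean-square distance between log2 profiles over the 6 libraries, each centred on its own mean, among 230 other miRNAs with at least 100 CPM. The median distance from miR-126a-3p was 0.35. The nearest was let-7d-3p (0.11), the opposite strand of a let-7 hairpin, followed by miR-130a-3p (0.12), a miRNA of endothelial and megakaryocytic cells. miR-143-3p, a miRNA of smooth muscle and mesenchyme, and miR-351-5p followed at 0.13 each, and miR-24-3p at 0.14. All 5 were higher in WT3 and KO6 than in the other libraries of their genotype.

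The 5p arm lay at 0.13 from the 3p arm and would have ranked 4 among these neighbours. miR-126a-5p itself was nearest to let-7d-3p (0.11), then miR-542-3p (0.13), miR-351-5p (0.14), miR-335-3p (0.14), which derives from an intron of the imprinted gene Mest, and miR-101b-3p (0.15). The candidates shared libraries and scaling factors with miR-126a. Of the 230, 13 were on the list of other endothelial miRNAs and 2 on the mesenchymal list.

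**Figure D4:**
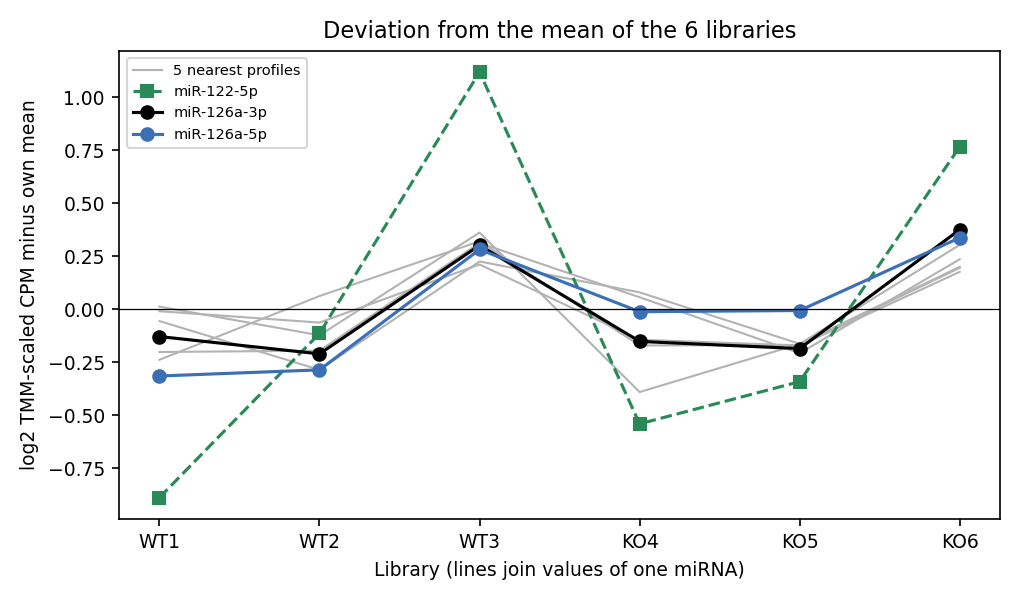
Log2 TMM-scaled CPM minus each miRNA's own mean of the 6 libraries, for miR-126a-3p (black), miR-126a-5p (blue), the 5 nearest profiles to miR-126a-3p (grey) and miR-122-5p (green, dashed). All are highest in WT3 or KO6 of their genotype; miR-122-5p reaches 1.118 and 0.77 there, and miR-126a-3p 0.30 and 0.38.

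In abundance miR-126a-3p ranked 35 by mean CPM, just below miR-19b-3p, a member of the miR-17-92 cluster, miR-30e-5p and miR-5099, and just above miR-107-3p, miR-103-3p and miR-30d-5p. Its mean of 6900.5 CPM stood against 7058, 7028 and 6979 CPM above it and 6209, 6203 and 5423 CPM below. miR-19b-3p was higher than miR-126a-3p in 4 of the 6 libraries, with a mean log2 difference of 0.05 (SD 0.40, n = 6). miR-107-3p was higher in 2 of 6 (mean log2 difference -0.15, SD 0.38) and miR-30d-5p in 1 of 6 (-0.33, SD 0.27). The order of miR-126a-3p and 5 of these neighbours was therefore within the spread between libraries, and the difference from miR-30d-5p exceeded 1 SD. miR-126a-5p ranked 75 by mean CPM.

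Other miRNAs known from the endothelium did not pass the test either. Of 16 listed, all 16 were tested, 0 were called in either direction by edgeR, 2 were above and 14 below 0, and the median log2 fold was -0.18, beside -0.01 for the 873 tested miRNAs. The most abundant were miR-92a-3p, at -0.31 (SE 0.19; edgeR adjusted p = 0.598), and miR-24-3p, at -0.10 (SE 0.19; adjusted p = 0.903). Of 12 progenitor miRNAs 0 were called and 10 were below 0 (median -0.36), and of 9 mesenchymal miRNAs 0 were called and 8 were below 0 (median -0.16). Of the 6 megakaryocyte and 5 myeloid miRNAs tested, 4 and 3 were below 0, with medians of -0.10 and -0.23. Below 0 were also 5 of 6 hepatocyte, 3 of 5 epithelial, 3 of 3 muscle and 7 of 10 erythroid miRNAs, the last including 3 products of the locus. Over all 873 tested miRNAs elsewhere 457 were below 0.

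The level of miR-126a-3p relative to these lists was compared within each library, which removes the scaling factor. Relative to the summed mesenchymal miRNAs, its log2 ratio was 1.16, 1.34 and 1.39 in WT1 to WT3 and 1.55, 1.42 and 1.55 in KO4 to KO6. All 3 KO ratios lay above the WT ratios. With the median of the list's log2 values in place of its sum, the groups overlapped (difference 0.15, exact two-sided permutation p = 0.2, n = 3 each). By the sum, the difference was 0.21, with an exact two-sided permutation p of 0.1, the smallest possible with n = 3 per group, and 0.4 adjusted over the 4 lists compared.

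Relative to the summed progenitor miRNAs, the log2 ratio was -0.29, -0.48 and -0.20 in WT and -0.05, -0.26 and 0.18 in KO. These overlapped, since KO5 lay below WT3. The difference was 0.28 (exact two-sided permutation p = 0.2, adjusted 0.4, n = 3 each), 0.17 without KO6, and 0.44 with the list's median in place of its sum (exact permutation p = 0.1, n = 3 each), where the groups did not overlap. Relative to the other endothelial miRNAs the difference was 0.21 (exact permutation p = 0.5, adjusted 0.667, n = 3 each), and it ranged from 0.05 without KO6 to 0.45 without WT3. The most abundant of that list, miR-92a-3p, held 17459 of the summed 33317 CPM in WT1 and 12961 of 27666 in KO4. With the list's median in place of its sum, the difference was 0.06 (exact two-sided permutation p = 0.7, n = 3 each). Relative to the summed hepatocyte miRNAs the difference was 0.12 (exact permutation p = 0.9, adjusted 0.9, n = 3 each), and it was -0.23 without WT3. The hepatocyte ratios of WT1 at -2.61 and WT3 at -4.04 set the range. None of these ratios differed between genotypes at the 0.05 level, which this design cannot reach.

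**Figure D5:**
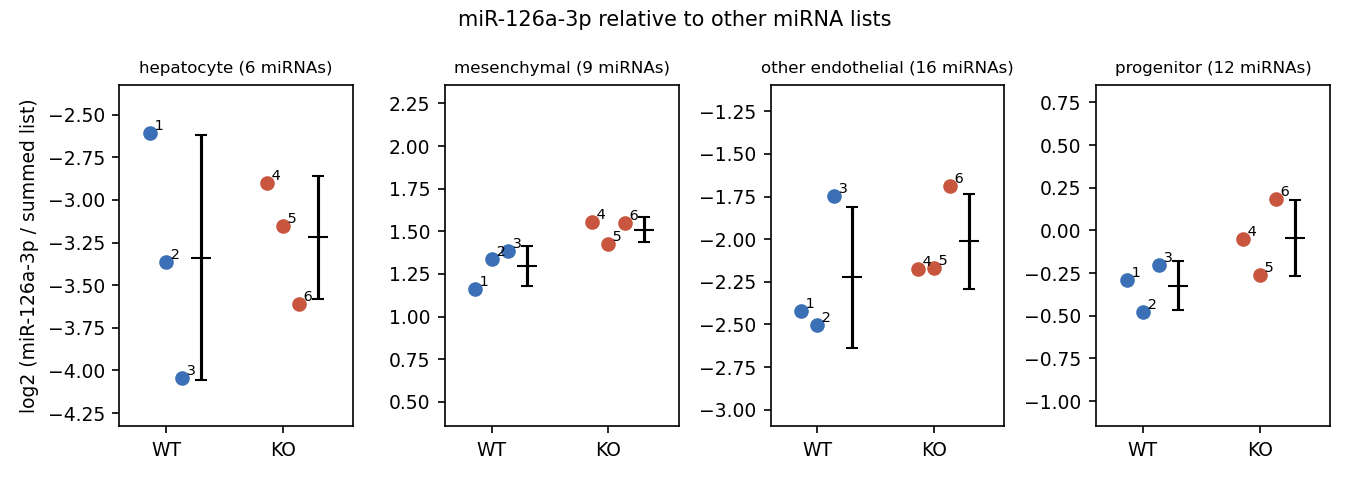
Log2 ratio of miR-126a-3p to the summed TMM-scaled CPM of 4 lists in each library (numbered points), with means and SD (n = 3 per genotype); each axis spans the same log2 range. The mesenchymal ratios of KO, 1.42 to 1.55, lie above those of WT, 1.16 to 1.39, but overlap when the list's median replaces its sum, and the hepatocyte ratios spread most.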

How the data were processed

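Per the labels' protocols, RNA of mouse fetal liver was extracted with a miRNeasy kit and made into libraries with the NEXTflex Small RNA kit for a HiSeq2000. The submitters' processing notes name cutadapt; the aligner, miRNA release, build and handling of reads that match more than 1 miRNA are not given in the sources used here. While the labels describe miRNA sequencing, the design text names HITS-CLIP. The deposited table gave raw read counts per mature miRNA, and percent columns that the authors computed from them (count over library total, within 5.0e-09).

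Genotypes were compared with edgeR 4.0.16 (R 4.3.3; TMM, filterByExpr, quasi-likelihood F-test, Benjamini-Hochberg over 876 tested miRNAs, threshold 0.05); SE is the absolute log2 fold over the square root of F. Arm ratios, log2((5p + 1)/(3p + 1)), were tested with limma 3.58.1 over hairpins whose arms both averaged 10 counts or more. Single values had exact permutation tests over 20 assignments. DESeq2 1.42.0, limma-voom, other scalings, no filter and leaving out each library were alternatives. Named miRNAs were the members, the 5 nearest profiles of each arm, the 3 neighbours in abundance on either side, and the 2 most abundant of a cell type list. Members and lists were chosen with earlier results of these data known. Depth was 16243894 to 27089133 counts per library, so a count of 0 allows up to 0.111 to 0.185 CPM (3 counts).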

Additional observations from a re-analysis of the deposited data

How the results depend on the processing

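The 2 miR-126a arms were never called in the 15 alternatives run for each. The fold of miR-126a-3p lay between -0.18 and 0.39 and was negative in 7 of them: RLE scaling (-0.0425), the locus removed before scaling (-0.0413), DESeq2 (-0.0367), WT3 and KO6 left out together (-0.0284), and 3 of the single-library omissions, which spanned -0.18 to 0.13. That of miR-126a-5p lay between 0.05 and 0.55, and the arm difference between 0.14 and 0.29 over 11 alternatives, all positive. Calls over all miRNAs outside the locus numbered 4, and 1 with RLE scaling, upper-quartile scaling or the locus removed before scaling, 58 with no scaling factor, 12 with DESeq2, 0 to 1 with a library left out, 16 with miR-122-5p as a covariate and 0 without WT3 and KO6; the cause was not tested. The ratio to hepatocyte miRNAs was 0.12 and spanned -0.23 to 0.48 with a library left out. The differences for the mesenchymal, progenitor and other endothelial ratios and the summed share stayed positive under the alternatives run. No paired analysis was possible because the WT and KO libraries share no replicate number. With 3 libraries per genotype, spread between libraries and not depth limits these comparisons.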
